A study of Homo sapiens with 4 samples.

Results

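The 6 rows of highest mean level were examined among 19835 rows of a table of non-coding transcripts in HUH7, a human cell line from a hepatocellular carcinoma. They were chosen by their mean over the 4 libraries, in FPKM (fragments per kilobase of transcript and per 1000000 mapped fragments), so their high level is the rule and not a finding, and no test was made on it. In order of mean they were ENST00000553637, ENST00000517300, ENST00000554988, ENST00000564138, ENST00000430394 and ENST00000541782. The sixth had a mean of 10171 FPKM, and the rows just outside were SNORD3B-1 (ENST00000577988) at 4197 FPKM and ENST00000581170 at 4153 FPKM. The study measured non-coding RNA in this line to choose long non-coding RNAs for a knockdown screen. Its 4 strand-specific libraries, replicates 1 to 4, form 1 group of cells in serum-containing medium, with ribosomal RNA removed by Ribo-Zero. Their titles also carry a letter, L for replicates 1 and 3 and H for replicates 2 and 4, which the submitters call an in-house name and no variable of the study, so the letters defined no groups. Separate cultures are not stated for the libraries, so their spread may be technical. The question was whether the 6 rows lie on structural RNAs, the abundant small RNAs that work as parts of RNA-protein machines. The molecule field of the labels reads polyA RNA, at odds with the depletion, and the depletion was taken as the method.

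Structural RNAs are mostly made without a poly(A) tail, and depletion of ribosomal RNA leaves them in a library where poly(A) selection would remove most. RNase P RNA is the catalytic RNA of the enzyme that trims the leader of precursor tRNAs. 7SK RNA holds the elongation factor P-TEFb inactive and so restrains RNA polymerase II, and small Cajal body RNAs guide the chemical modification of the spliceosomal RNAs. Messenger RNAs of the replication-dependent histones likewise end in a stem-loop instead of a tail.

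ENST00000553637 exceeded every other row in each library. It had 1289328, 1019599, 1185405 and 1213769 FPKM in replicates 1 to 4, a mean of 1177026 ± 113747 (SD, n = 4). Replicate 2 was the lowest and replicate 1 the highest, 1.26 times apart. ENST00000517300 had 64310, 72407, 90286.5 and 94889 FPKM, a mean of 80473 ± 14496 (SD, n = 4), with replicates 3 and 4 above replicates 1 and 2. ENST00000554988 had 56762, 55088, 56730 and 63175 FPKM, a mean of 57939 ± 3578 (SD, n = 4). Its coefficient of variation of 6.17% was the lowest of the 6, and 1.70% without replicate 4. With every library divided to the same sum it was 5.45%, above the 5.00% of ENST00000553637. However, ENST00000553637 makes up most of that sum (58.1% to 65.6%), so the division narrows its own variation. Scaled by the median of ratios, the values were 13.7% for ENST00000554988 and 16.4% for ENST00000553637. ENST00000564138 had 34706, 29693, 33779 and 38841 FPKM, a mean of 34255 ± 3754 (SD, n = 4). ENST00000430394 had 18291, 19514, 16951 and 24243 FPKM, a mean of 19750 ± 3173 (SD, n = 4). ENST00000541782 had 11074.5, 12148, 7548 and 9914 FPKM, a mean of 10171 ± 1973 (SD, n = 4). Replicate 4 gave the highest value in 4 of the 6 rows, while ENST00000553637 was highest in replicate 1 and ENST00000541782 in replicate 2.

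**Figure D1:**
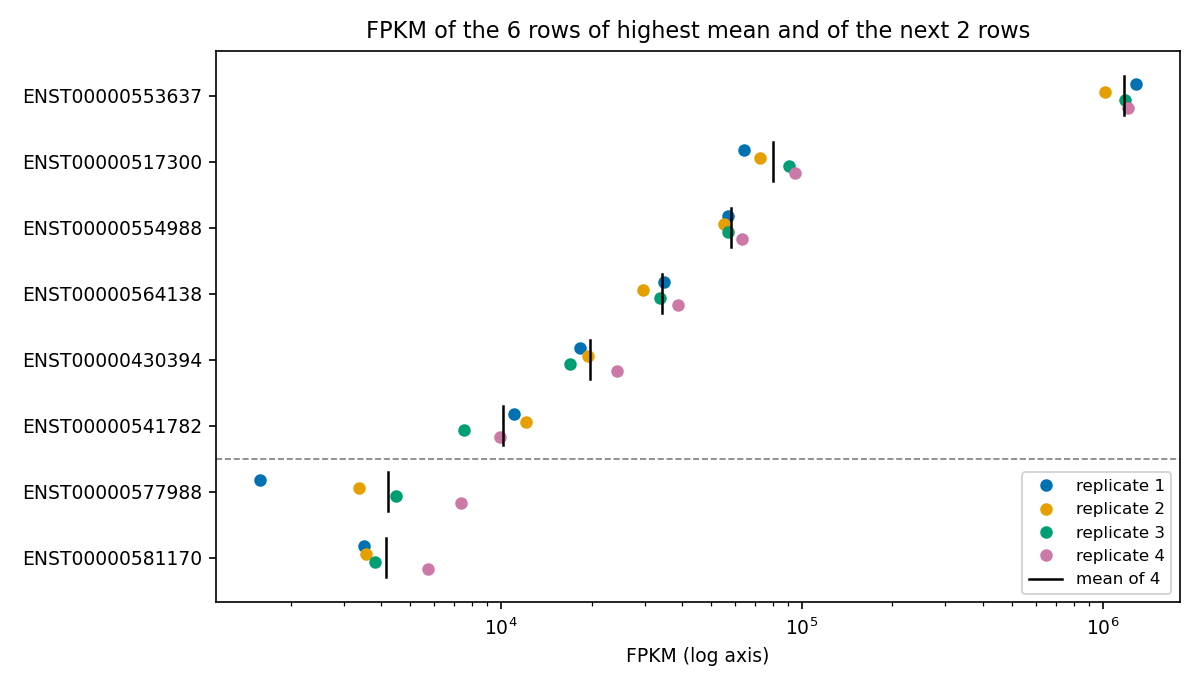
FPKM (horizontal log axis) of the 6 rows of highest mean, above the dashed line, and of the next 2 rows, below it. Each point is 1 of the 4 libraries and the black bar is their mean. Values of ENST00000553637 lie at 1019599 FPKM or more, and no library of ENST00000541782 falls below 7548 FPKM.

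The order of the 6 rows was the same in all 4 libraries. The step from ENST00000553637 to ENST00000517300 was the widest, at 20.05, 14.1, 13.1 and 12.8 fold in replicates 1 to 4, a mean log2 ratio of 3.88 ± 0.30 (SD, n = 4). The narrowest was from ENST00000517300 to ENST00000554988, at 1.13, 1.31, 1.59 and 1.502 fold, a mean log2 ratio of 0.46 ± 0.22 (SD, n = 4). No 2 neighbours overlapped over the 4 libraries, and here the margin was small, since the lowest library of ENST00000517300 (64310 FPKM) lay just above the highest of ENST00000554988 (63175 FPKM). After scaling by the median of ratios these neighbours did overlap, with a lowest value of 64750 for ENST00000517300 and a highest of 68272 for ENST00000554988. The remaining steps were 1.63 to 1.86 fold for ENST00000554988 over ENST00000564138, 1.52 to 1.99 fold for ENST00000564138 over ENST00000430394, and 1.61 to 2.45 fold for ENST00000430394 over ENST00000541782. Below the sixth row the gap depended on the library. ENST00000541782 stood 6.997 fold above SNORD3B-1 in replicate 1 and 1.35 fold above it in replicate 4. SNORD3B-1, a copy of the U3 small nucleolar RNA, ranged from rank 7 to rank 37 between libraries, at 1583, 3377, 4468 and 7361 FPKM.

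The 6 rows together held 75.03%, 68.8%, 73.0% and 74.7% of the summed FPKM of replicates 1 to 4, against 25.0%, 31.2%, 27.0% and 25.3% in the other 19829 rows. ENST00000553637 alone held 65.6%, 58.1%, 62.2% and 62.7%. The shares of the others averaged 4.26% for ENST00000517300, 3.07% for ENST00000554988, 1.81% for ENST00000564138, 1.05% for ENST00000430394 and 0.541% for ENST00000541782. The sum of rows 2 to 6 varied by 10.3% between libraries (coefficient of variation), whereas the sum without the 6 rows varied by 5.28%. The coefficients of variation of the 6 rows ran between 6.17% and 19.4%, with a median of 13.5%. The median was 11.3% over the 66 other rows at 1000 FPKM or more.

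**Figure D2:**
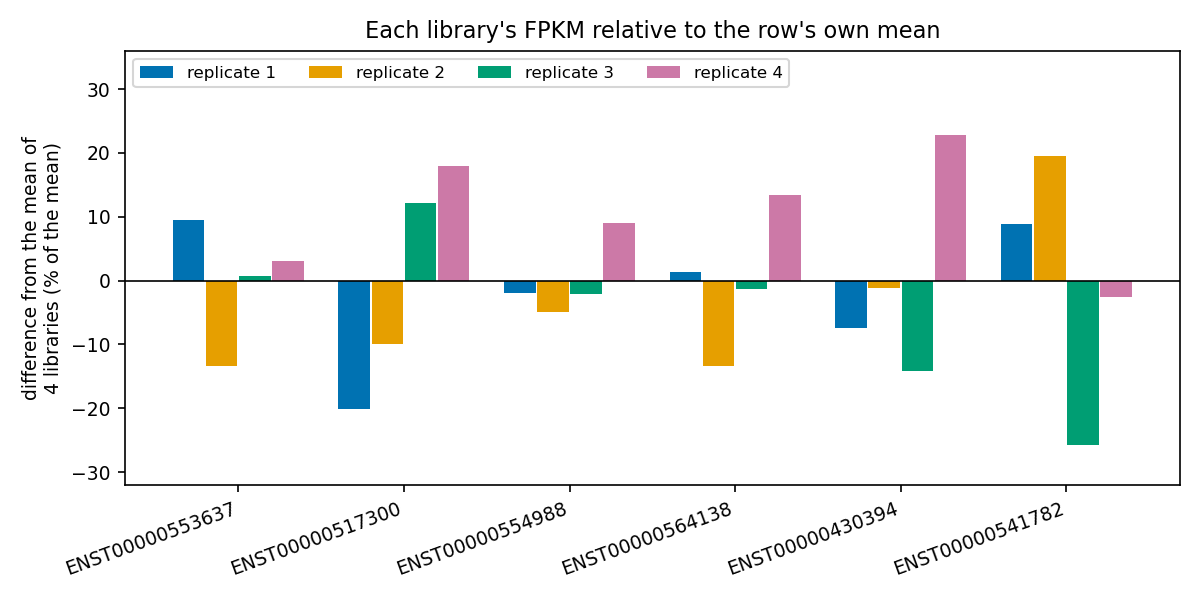
Difference of each library from the mean of the same row, in percent of that mean, for the 6 rows (horizontal axis) and 4 libraries (bars). Replicate 2 lies 13.4% below the mean for ENST00000553637 and 19.4% above it for ENST00000541782.

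The libraries did not deviate in 1 direction for all 6 rows. Replicate 2 was 13.4% below the mean for ENST00000553637 and 13.3% below it for ENST00000564138, but 19.4% above it for ENST00000541782. Replicate 3 was 25.8% below the mean for ENST00000541782 and 14.2% below it for ENST00000430394, but 12.2% above it for ENST00000517300. With replicates brought to a common scale by the median of ratios over 8106 rows, replicate 2 became the lowest of ENST00000517300 as well, which was lowest in replicate 1 in the values as given.

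Of the 6 rows, 4 had a model in the GENCODE annotation, release 44, in its version for GRCh37, the build of the files. The models of ENST00000554988 and ENST00000541782 carried the same version number as the table. Those of ENST00000564138 and ENST00000430394 were newer versions, so the sequence behind their FPKM may differ from the current model. By coordinates, 0 of the 4 modelled rows shared even a base with any of 5975 structural RNA genes of the annotation, on the same or the opposite strand. However, that annotation had no model for some RNAs, and the sequence of the rows gave a different count. At 90% identity over at least 50 nt on the sense strand, 1 of 4 rows matched a listed structural RNA, against 102 of 10534 other modelled rows (0.968%) and 1 of 57 others at 1000 FPKM or more (1.75%). At 75% identity with pseudogene copies included, an alternative chosen after seeing the data, 2 of 4 did. No share over the other rows was computed at that setting, so this count has nothing to stand beside. With 4 rows, no share of the members is read from these counts. Each row is described next, with the stretch that carries a match where there is one.

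ENST00000554988 is a lncRNA of gene ENSG00000259001 with 1 exon of 638 nt on the minus strand (GRCh37, chr14:20811207-20811844). It lies head to head with PARP2, which encodes a DNA repair polymerase. PARP2 is on the opposite strand and its exons cover 71 nt at the 5′ end of the row, from 20811774 to 20811844. Positions 295 to 586 of the row aligned in sense with RPPH1-3P, a pseudogene copy of the RNase P RNA, at 77.8% identity over 293 alignment columns, with 54 mismatches and 7 gap openings. The alignment covered 45.8% of the row and bases 22 to 304 of the 322 nt copy. RefSeq, on the newer GRCh38.p14 build, lists RPPH1, the RNase P RNA gene itself, at 341 nt as the gene next to PARP2. RPPH1 is there on the lower side of PARP2, the side on which the row lies. It was not among the models used here, so neither its coordinates nor its sequence were compared with the row. The 77.8% is identity with the pseudogene copy alone and does not measure how close the row is to RPPH1. The aligned stretch is printed because it is the sequence the match rests on (chr14:20811259-20811550, minus strand), with the longest run identical to the pseudogene copy, 18 nt, in capitals.
ENST00000554988 positions 295 to 586: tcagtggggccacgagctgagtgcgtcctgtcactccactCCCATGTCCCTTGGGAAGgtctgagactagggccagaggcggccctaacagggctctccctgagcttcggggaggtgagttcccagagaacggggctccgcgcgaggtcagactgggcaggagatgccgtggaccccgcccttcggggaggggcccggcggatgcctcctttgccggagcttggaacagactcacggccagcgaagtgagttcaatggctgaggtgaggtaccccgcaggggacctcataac
No other place in the genome matched the row over 50 nt or more at 90% identity.

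The 294 nt of the row that precede the aligned stretch held the octamer ATTTGCAT at position 178 and TATAAG at position 245, letters found in front of many genes for small RNAs. Both were chosen after the sequence was seen. Searched on both strands, the octamer occurred in the first 294 nt of 1.13% of 10262 other modelled rows, and TATAAG in 6.07%. A match of letters is a description and does not show that a factor binds there.

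By fragments, ENST00000554988 took an estimated 3.17%, 3.07%, 3.17% and 3.53% of all fragments placed on the table's transcripts in replicates 1 to 4, or 142528 to 178375 fragments per library. Here the share is FPKM times effective length, the length less 80 nt. That offset and depths of 4500000, 4860000, 4710000 and 5060000 fragments gave the most low values on whole fragments, 66.4% to 67.4% of them within 0.05. The depths are estimates, since a part of the values was not whole.

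ENST00000564138 is now annotated as a coding transcript of PLCG2, which encodes a phospholipase C of immune cell signalling, with 33 exons and 8666 nt on the plus strand (chr16:81812896-81996290). Positions 7907 to 8146 of this model matched bases 1 to 240 of RN7SK, the 7SK RNA gene of 331 nt on chromosome 6, in sense, at 97.9% identity without a gap. The stretch (chr16:81995531-81995770) lies in exon 33, within the 3′ UTR of PLCG2. It takes 2.77% of the current model. The study's own sequence for this row, a stretch of 167 nt (chr16:81995610-81995776), aligned over 160 nt with bases 81 to 240 of RN7SK at 97.5% identity, so 95.8% of that sequence was 7SK-like. RefSeq lists a 7SK pseudogene of 240 nt, RN7SKP176, inside PLCG2. The copy differed from RN7SK at 5 positions, counted from 1 at the RNA's 5′ end and written with the base of RN7SK first: C80T, C96A, G138C, T156A and A217G. The matched part of RN7SK is printed (GRCh37, chr6:52860418-52860657, plus strand), with these 5 positions in capitals.
RN7SK bases 1 to 240: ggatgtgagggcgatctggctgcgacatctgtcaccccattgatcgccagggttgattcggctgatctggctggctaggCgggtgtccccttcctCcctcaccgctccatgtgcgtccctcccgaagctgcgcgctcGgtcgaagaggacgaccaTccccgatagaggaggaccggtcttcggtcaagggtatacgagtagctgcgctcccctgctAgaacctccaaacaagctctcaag
RN7SK had no row under its own name among the modelled rows, and the 2 loci share most of this sequence.

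Sequence like 7SK was found in 3 further modelled rows, all at lower levels. ENST00000530600 of ENSG00000254859, which carries 170 nt at 92.4% identity in antisense, had 174, 107, 106 and 126 FPKM. ENST00000418942 of ENSG00000232512, with 180 nt at 88.3% identity in sense, had 56.5, 38.4, 12.5 and 17.7 FPKM. ENST00000505371 of LINC02198, with 57 nt at 89.5% identity in sense, was at 0 FPKM in 3 libraries and at 0.66 FPKM in replicate 4. The matches at 88.3% and 89.5% lie below the 90% identity used elsewhere. The mean of ENST00000564138 was 1095 times that of the other sense row with a long match and 267 times that of the antisense row. ENST00000564138 was chosen for its high mean, so these ratios are a description only. In the genome, the 167 nt stretch matched 17 places on 13 chromosomes over at least 50 nt at 90% identity, itself included. Which locus gave the fragments was not tested.

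ENST00000541782 is a lncRNA of ENSG00000276232 with 1 exon of 248 nt on the plus strand of chromosome 12. It lies wholly within intron 4 of NCAPD2, an intron of 495 nt on the same strand, and shares no base with an exon of that gene. NCAPD2 encodes a subunit of condensin, which compacts chromosomes in mitosis. RefSeq (GRCh38.p14) lists SCARNA10, a small Cajal body RNA of 330 nt, inside NCAPD2. SCARNA10 was not among the models used here, so the row was compared with it neither by coordinates nor by sequence. Whether the row lies on SCARNA10 was not tested. The row matched none of the structural RNA models that were searched, and only its own place in the genome.

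The share of fragments on ENST00000541782 was 0.186%, 0.204%, 0.127% and 0.167% in replicates 1 to 4, or 5972 to 9919 estimated fragments per library. The row is short, so its estimate moved with the offset, between 0.1302% at an offset of 120 nt and 0.252% at the full length. Other rows at the loci of the 4 modelled rows were few. The only one was ENST00000426275, which spans the same region and strand as ENST00000430394, shares no exonic base with it and had 0, 0.54, 0.56 and 0.26 FPKM.

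By its current model, newer than the version behind the FPKM, ENST00000430394 goes against the description of the 6 rows as likely structural RNAs. It is a lncRNA of the histone pseudogene H2BP1, with 5 exons and 296 nt on the plus strand (chr1:120906101-120916112), and it matched no structural RNA even at 75% identity. Instead, its first 70 nt matched H2BC18, which encodes histone H2B, a protein of the nucleosome core, at 97.1% identity. In all, 12 coding H2B genes matched it over at least 50 nt at 90% identity. Positions 111 to 198, the whole of exon 3, were identical to 88 nt of a transcript of the histone H3 gene H3-7. The matched part of exon 1 is printed (chr1:120906101-120906170, plus strand), with the 2 positions that differ from H2BC18 in capitals.
ENST00000430394 bases 1 to 70: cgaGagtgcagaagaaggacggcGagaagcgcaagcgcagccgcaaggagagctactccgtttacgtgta
The model matched 94 places on 18 chromosomes over at least 50 nt at 90% identity. Coding transcripts were not part of the reference the reads were aligned to. A further row with H2B sequence, ENST00000564237 of ENSG00000290792, which shares 62 nt with ENST00000430394 at 93.5% identity, had 29.8, 31.9, 25.3 and 22.4 FPKM. The mean of ENST00000430394 was 723 times that of this row, whose model also differs in version from the table. ENST00000430394 was chosen for its high mean, so the ratio is a description only.

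**Figure D3:**
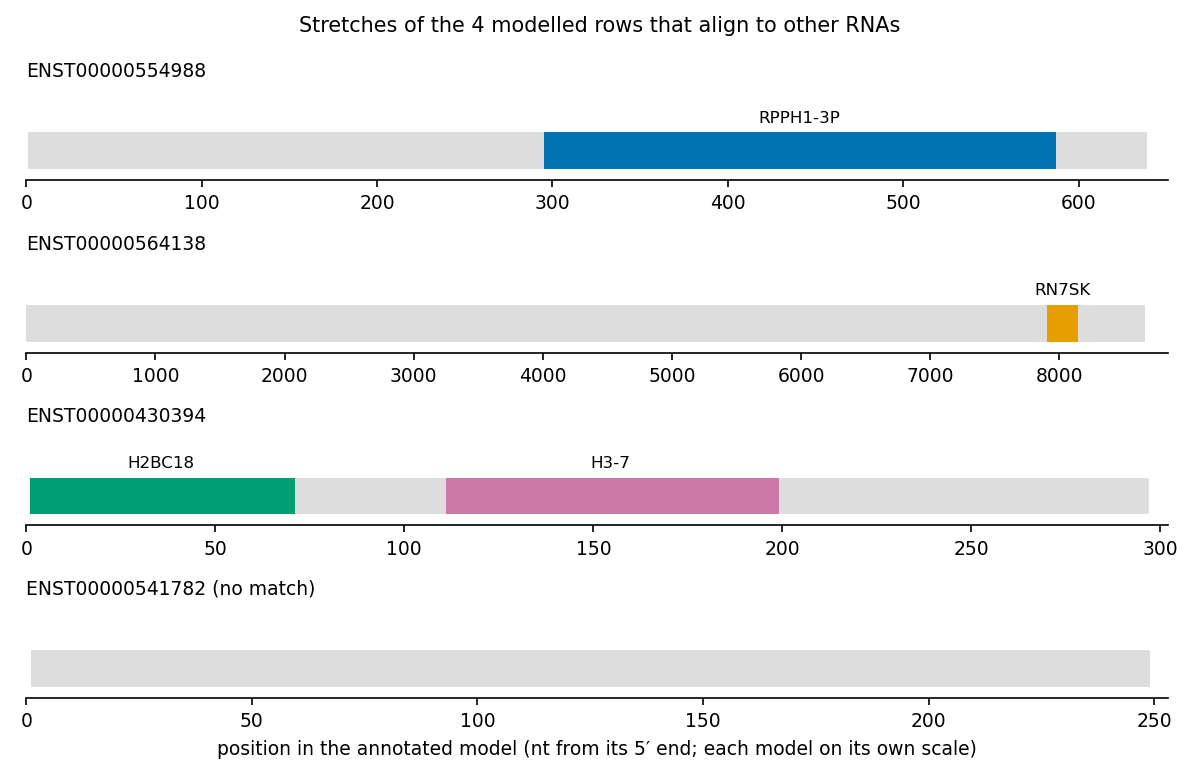
The 4 rows with a model (grey bars, position in nt from the 5′ end, each on its own scale) and the stretches that aligned to other RNAs (coloured). RPPH1-3P covers positions 295 to 586 of ENST00000554988 and RN7SK positions 7907 to 8146 of ENST00000564138. H2BC18 and H3-7 match ENST00000430394, and ENST00000541782 has no match among the structural RNA models searched, which lacked SCARNA10.

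ENST00000553637 and ENST00000517300 had no model in the annotation, as 1462 of the 19835 rows, so neither position nor sequence was analysed here. Their fragments could only be bounded. In RSEM, FPKM times effective length sums over all rows to 1000000000 per library. The 11445 rows of known length took 30.9%, 35.0%, 32.6% and 30.8% of the fragments in replicates 1 to 4, leaving 65.0% to 69.2% for all the rest. Hence the effective length of ENST00000553637 cannot have been above 536 nt, the limit from replicate 1, if the FPKM are what RSEM defines. The limit was 515 nt with full lengths and 546 nt with an offset of 120 nt. Each 100 nt of effective length would correspond to 12.9%, 10.2%, 11.9% and 12.1% of all fragments in replicates 1 to 4. For ENST00000517300 the same limit was 7295 nt, and each 100 nt would correspond to 0.805% on average.

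The 4 modelled rows were set beside all 10538 modelled rows with a mean of at least 0.1 FPKM. A row was counted as holding a structural RNA where its exons contained at least 90% of such a gene on the same strand. The count includes rows that are transcripts of the structural RNA gene itself, such as SNORD3B-1, SNORD3A, SCARNA9 and BCYRN1, as well as host transcripts such as that of DANCR. For the 4 rows the count was 0. However, RPPH1 and SCARNA10 were not among the models, so a row lying on either could not be counted. Nothing about the 4 rows is therefore read from this 0. Of 57 others at 1000 FPKM or more, 1 was counted (1.75%, Wilson 95% interval 0.310% to 9.29%). The counts were 4 of 905 rows at 100 to 1000 FPKM (0.442%, 0.172% to 1.13%), 6 of 4098 at 5 to 100 FPKM (0.146%, 0.0671% to 0.319%) and 3 of 5474 at 0.1 to 5 FPKM (0.0548%, 0.0186% to 0.161%). On the opposite strand the counts were 0 of 61, 0 of 905, 6 of 4098 and 9 of 5474 rows in the same order. The Wilson 95% intervals of the counts of 0 reach up to 5.92% and 0.423%. The intervals cover counting error only. Without replicate 3, the share at 1000 FPKM and over, the 4 modelled rows included, was 3.33%, against 1.64% with all libraries. By coordinates, the intervals of neighbouring classes overlap, while those at 100 to 1000 FPKM and at 0.1 to 5 FPKM do not. By sequence, the sense-strand shares without the 6 rows were 3.87% at 100 to 1000 FPKM (2.79% to 5.33%), 1.37% at 5 to 100 FPKM (1.05% to 1.77%) and 0.183% at 0.1 to 5 FPKM (0.0993% to 0.336%), and these 3 intervals do not overlap. The antisense shares were 5.19%, 2.27% and 0.585% in the same order. Without 7SL RNA and the brain cytoplasmic RNA (BC200), 25 of 10534 rows matched in sense, against 102 with them. The sense shares were then 0.552% (0.236% to 1.29%), 0.342% (0.204% to 0.573%) and 0.0913% (0.0390% to 0.214%) in the same order. Neighbouring sense intervals then overlap, while the first and the last do not. The antisense shares were then 0.884%, 0.488% and 0.256%, above the sense share in each of these classes. So the shares rose with level over these classes on both strands. At 1000 FPKM or more, 1 of 57 rows matched in sense with or without 7SL and BC200 (1.75%, 0.310% to 9.29%). In antisense it was 1 of 57 with them and 0 of 57 without.

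**Figure D4:**
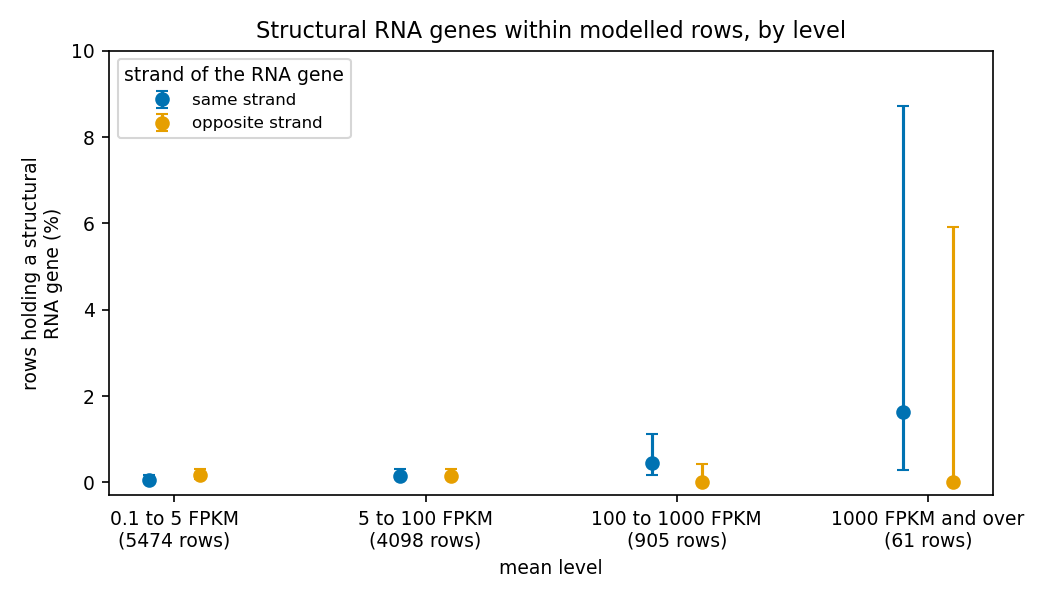
Percent of modelled rows (vertical axis) that hold at least 90% of a structural RNA gene on the same or the opposite strand, by mean level (horizontal axis), the 4 modelled rows of the top 6 included in the highest class. Points are shares and bars Wilson 95% intervals. The same-strand share is 1.64% at 1000 FPKM and over, from 1 of 61 rows, a transcript of SNORD3B-1 itself.

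The rows with a structural RNA gene by coordinates have lower means than the 6 rows by the rule that chose these. After SNORD3B-1, the highest were SNORD3A (ENST00000584923), a further U3 copy, at 949 ± 141 FPKM, SCARNA9 (ENST00000530422), a small Cajal body RNA, at 292 ± 33.4 FPKM, and a transcript of the host gene DANCR that contains SNORA26 (ENST00000441504) at 240 ± 52.2 FPKM. BCYRN1 (ENST00000418539), the brain cytoplasmic RNA, was at 238 ± 20.6 FPKM (all SD, n = 4). The rest of the first 10 were SNORA71B at 50.6 FPKM, SNHG11 with SNORA60 at 36.3 FPKM, SNORD3B-2 at 34.7 FPKM, SNORA59B at 9.49 FPKM and SCARNA22 at 6.85 FPKM. ENST00000541782, the lowest of the 6 rows, was above SNORD3B-1, the highest of these, in 4 of 4 libraries. That comparison uses the values that chose the 6 rows and is a description only. Of 92 listed structural RNAs, 75 were in the annotation and 8 had a modelled row of their own, 7 of them with a mean above 5 FPKM, and 6 without replicate 2 or without replicate 3. The highest was SNORD3B-1. The lowest was RNU4ATAC, a minor spliceosome RNA, at 0, 0, 4.4 and 0 FPKM, and SNORD3C, a further U3 copy among the 7, likewise had fragments in replicate 3 alone, at 21.8 FPKM. The 7SL, 7SK, RNase P, RNase MRP, Y and vault RNAs on the list had no modelled row under their own names.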

How the data were processed

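Non-coding RNA of HUH7 cells was measured in 4 libraries of 1 group. The authors deposited FPKM values for 19835 transcripts in each library. As the study's methods and the submitters' processing notes give it, Bowtie 1.01 placed reads on Ensembl 68 non-coding transcripts on hg19 (GRCh37) and RSEM 1.2.3 estimated levels, which divides reads matching several transcripts. Coding transcripts were not in that reference, and no source used here gives the strand setting. The files hold no counts.

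Means, SD and shares were computed from FPKM as given, and log2 ratios with a pseudocount of 1 FPKM. Identifiers were matched to GENCODE release 44 on GRCh37 (18373 of 19835, 11445 with the same version). Overlap was found by coordinates, and sequence matches with blastn 2.17.0 (50 nt or more, 90% identity or more). Structural RNA genes were those of snRNA, snoRNA, scaRNA, scRNA, rRNA, ribozyme, vault, mitochondrial tRNA and miscellaneous RNA biotypes. The fit of offset and depth used rows of 400 nt or more at 0.25 to 3 FPKM and was tested on simulated data. The simulation held whole fragments only, unlike the real values, so it does not show how exact the depths are here. RefSeq names, lengths and the order of genes are from GRCh38.p14, and its coordinates were not compared with the rows. Intervals came from SciPy 1.17.1. The sequence of ENST00000541782 is not reported here.

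The rows named are the 6 rows, the 2 below them, other rows at their loci, overlapping coding genes, the 10 highest other rows holding a structural RNA, and the structural RNAs and rows that share sequence. The members and lists were chosen with earlier results of these data known. No hypothesis test was made, since the FPKM chose the rows. Alternatives were other scalings, pseudocounts, overlap limits and offsets, and leaving out each library.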

Additional observations from a re-analysis of the deposited data

Results flagged for a closer look

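Of 24 rows named in the text, 4 had a library far from the other 3 (Dixon's ratio above the 95% critical value for 4 libraries). Chance gives about 1 in 20 for continuous values. However, a row at 0 FPKM in all libraries but 1 has a ratio of 1 whatever its value. That is so for ENST00000505371, RNU4ATAC and SNORD3C, so the count of 4 is not read against chance. ENST00000581170, the row of second highest mean below the 6, had 5725 FPKM in replicate 4 and 3508 to 3822 FPKM in the others (ratio 0.859). ENST00000505371, the LINC02198 row with a short 7SK-like stretch, had 0.66 FPKM in replicate 4 and 0 FPKM in the others (ratio 1). RNU4ATAC (ENST00000580972) had 4.4 FPKM and SNORD3C (ENST00000580533) 21.8 FPKM in replicate 3, and both had 0 FPKM in the others (ratio 1 each). None of the 6 rows was among them.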

How the results depend on the processing

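Of 188 alternative values, 167 moved by less than the spread between libraries or stayed within the limits set for a count or share, 21 moved further and 0 reversed. Dividing each library to a sum of 1000000 lowered every mean by construction, to 621548 for ENST00000553637, 42597 for ENST00000517300, 30670 for ENST00000554988, 18093 for ENST00000564138, 10461 for ENST00000430394 and 5410 for ENST00000541782. Of the 4 modelled rows, the number matching a structural RNA was 0 by coordinates, 1 by sequence at 90% identity and 2 at 75% with pseudogene copies. None of these counts could include RPPH1 or SCARNA10 themselves, which the annotation used lacked. The count at 75% has no share over other rows beside it. Among rows with the same version only, the share holding a structural RNA at 1000 FPKM and over was 0, because SNORD3B-1 has another version. The share of fragments with full lengths was 3.70% for ENST00000554988 and 0.252% for ENST00000541782, and with an offset of 120 nt it was 3.001% and 0.1302%. Scaling by the median of ratios gave coefficients of variation of 16.4% for ENST00000553637, 13.7% for ENST00000554988 and 18.6% for ENST00000564138. Leaving out 1 library lowered that of ENST00000553637 to 4.37% (without replicate 2), of ENST00000554988 to 1.70% and of ENST00000430394 to 7.02% (both without replicate 4), and of ENST00000541782 to 10.1% (without replicate 3). No paired analysis was possible because the 4 libraries form 1 group, the letters in their titles being no variable of the study. The main limits are the 2 rows without a model, the 2 rows with newer models, structural RNAs missing from the annotation used, and shared sequence, for which FPKM do not show the locus of origin.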
